A study of Mus musculus with 2931 samples.

Results

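The 6 genes of sphingosine 1-phosphate signalling followed here through the endothelium of the growing mouse lung are the receptors S1pr1 and S1pr3, the exporter Spns2, the sphingosine kinases Sphk1 and Sphk2, and the lyase Sgpl1. They were taken by symbol, and all 6 were found among the 18072 gene symbols of the count table. The data were read counts from 2931 single lung endothelial cells, sorted into plates and sequenced one library per cell after tagmentation with Tn5, without molecular identifiers. Each of 10 mice was a replicate: 1 female and 1 male for each of 5 groups. The groups labelled normal, called normal air below, were E18.5 (a day of late gestation), P1, P7 and P21 (days after birth), and the last was P7 under hyperoxia, an exposure to raised oxygen whose dose and length the labels do not give. The labels give no strain, allele or transgene, name the tissue as distal lung, and assign each cell to a subtype; those deposited subtype labels were used throughout. Early and Late Car4- capillary cells were joined as Car4- capillaries where subtypes were tested, because the Late label holds 533 of its 622 cells at P21.

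Sphingosine 1-phosphate is a lipid signal held at high concentration in blood and lymph and at low concentration in tissue. Sphingosine kinases make it inside the cell by phosphorylating sphingosine, Spns2 carries it out of endothelial cells, and Sgpl1 destroys it irreversibly. In the endothelium S1pr1 couples to Gi proteins and Rac and is known for tightening junctions and restraining sprouting, and S1pr3 couples more broadly, also to Gq. Spns2 in lymphatic endothelium is known as a source of the lipid in lymph, on which lymphocyte exit from lymph nodes depends.

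Total counts per mouse ran from 56564316 reads (male, P7) to 331392982 (female, P7), and the median cell held 621406 reads. Most cells (2694) came from a CD31 sort gate, 224 from a mesenchymal gate and 13 from a CD45 gate. Each label was checked against its defining markers: at 50000 reads per cell, Car4 was detected in 98.2% of Car4+ capillary cells against 26.6% of Early Car4- cells, Prox1 in 97.6% of lymphatic cells and Cdh5, a pan-endothelial gene, in 87.3% to 98.9% of the cells of every label with more than 10 cells. The 89 Late-labelled cells from before P21 stood apart, with a median of 1149, 1295 and 1107.5 detected genes in the mice with at least 8 of them, where Early cells had medians of 2946.5 to 3964.5.

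Below, a level is in CPM, the reads of the gene scaled to the total reads summed over a mouse's cells of 1 subtype, given for sums of at least 8 cells, and pairs of values are for the female and the male mouse. A share is the percentage of cells with at least 1 read after every cell was thinned to 50000 reads, which left out 11 shallower cells. A change was called at an adjusted p under 0.05 (edgeR quasi-likelihood test on the sums, Benjamini-Hochberg over all genes tested). The labels do not say whether mice were littermates, and with 2 mice in each group most comparisons of age and oxygen could find only large changes.

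The 6 genes span a wide range of abundance. Per kilobase of exon, S1pr1 stood at 276 CPM over all cells, rank 162 of the 18017 genes with an annotated length, and Spns2 at 31.7 CPM, rank 1788. Sphk2 (3.17 CPM per kilobase) and Sgpl1 (3.07) lay far below, and S1pr3 (0.780) and Sphk1 (0.281) below those. S1pr1 had a read in 2868 of 2931 cells and Spns2 in 1382, while Sphk2 had one in 350, Sgpl1 in 329, Sphk1 in 91 and S1pr3 in 79. The rare genes rest on few cells: 10 cells held 70.4% of all S1pr3 reads and 82.2% of all Sphk1 reads, against 3.93% for S1pr1. S1pr3 and Sphk1 are therefore described by cells and reads, with no fitted fold change.

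In the GENCODE M21 annotation (GRCm38), S1pr1 spans chr3:115710433-115715072 on the minus strand and overlaps no other annotated gene. S1pr3 lies at chr13:51408639-51422797 (plus) with the lincRNA Gm32834 on the minus strand, and Spns2 at chr11:72451638-72489904 (minus) overlapping Mybbp1a. Sphk1 lies at chr11:116530925-116536674 (plus) with the antisense Gm29292, Sphk2 at chr7:45709467-45718002 (minus) overlapping Dbp and Rpl18, and Sgpl1 at chr10:61098642-61147703 (minus) with the miRNA gene Gm44308. These overlaps are of whole gene spans, and overlap of exons was not examined. Gm44308 lies on the same strand as Sgpl1, and the other overlapping genes on the opposite strand. Whether the counting used strand is not given in the sources used here. How far reads of overlapping genes enter the counts of the last 5 is therefore not known.

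S1pr1, the main endothelial receptor, was detected in most cells of every subtype (mean share 84.2% in Late Car4- capillaries and at least 94.5% in the other labels), and capillary cells carried the most of it. Its mean level was 1504 ± 305 CPM in Late Car4- capillaries (SD, n = 5 mice), 1398 ± 408 in Car4+ capillaries (n = 8) and 695 ± 155 in Early Car4- capillaries (n = 6). The Late mean includes the E18.5, P1 and P7 females (1634, 1243 and 1878 CPM), with only 12, 21 and 44 Late cells of few detected genes. Nonproliferative embryonic cells (598 ± 250.4, n = 2), venous (597 ± 292, n = 9), proliferative (547 ± 126, n = 8) and arterial I cells (489.7 ± 128, n = 7) followed. Lymphatic cells had 358 ± 154 (n = 4), and the 1 mouse with enough arterial II cells had 356. The single step in this order without overlap between mice was from Car4+ capillaries (lowest mouse 898) to Early Car4- capillaries (highest mouse 859.9). Before P21, Late cells had more S1pr1 reads but a smaller share of cells with it than Early cells, 1243 against 725 CPM and 90.5% against 100% in the P1 female, and 1878 against 739 CPM and 75.0% against 99.4% in the P7 female.

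**Figure D1:**
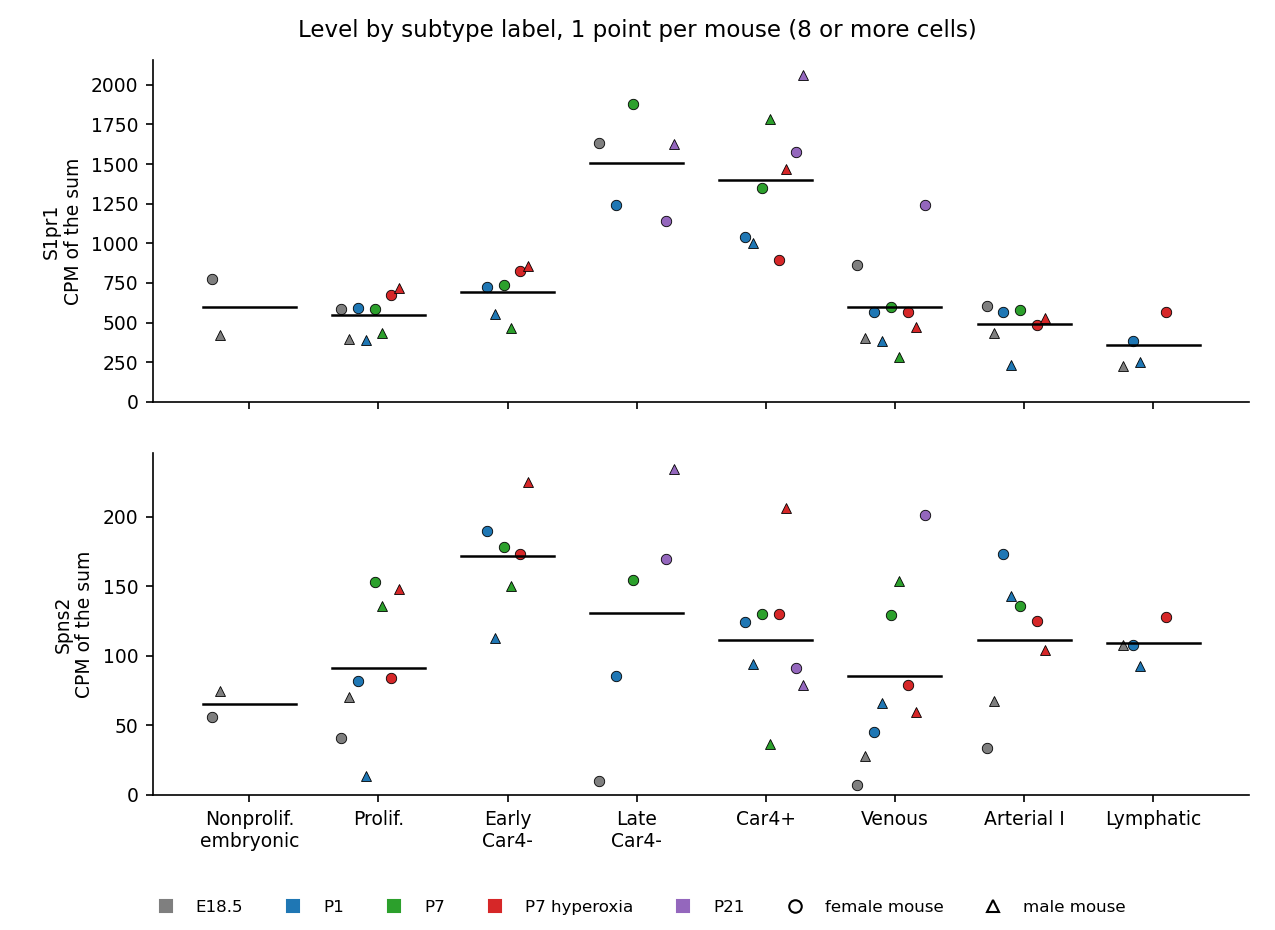
S1pr1 (top) and Spns2 (bottom) levels in CPM by subtype label; each point is 1 mouse with at least 8 cells of that label, coloured by group and shaped by sex, and the black line is the mean over mice. S1pr1 lies highest in the Late Car4- and Car4+ labels (means 1504 and 1398 CPM), and the Spns2 ranges of neighbouring labels overlap. The Late points from before P21 rest on 12, 21 and 44 cells.

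Between the capillary classes of the same mouse, S1pr1 was higher in Car4+ cells in 8 of 8 mice. At P1 the levels were 1043 CPM in Car4+ against 763 in Car4- capillaries in the female and 1001 against 551 in the male. At P7 they were 1351 against 883 and 1783 against 470.3, and under hyperoxia 898 against 827 and 1472 against 856. At P21 they were 1575 against 1132 and 2064 against 1615. The ratio ran from 1.09 in the hyperoxia female to 3.79 in the normal-air P7 male, with a median of 1.46. The 3.79 rests on 6 Car4+ cells of other sort gates: with CD31-gate cells alone that mouse had 489.5 against 432 CPM.

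S1pr1 was the only one of the 6 members called in this comparison (log2 difference 1.00, SE 0.21, edgeR adjusted p = 0.00214), where 6.24% of the 14698 genes tested were called. The fitted difference is larger than the median ratio of CPM, and the median over all genes in this fit was -0.26 on the log2 scale. With library totals as the only scaling it was 0.75 (edgeR adjusted p = 0.00693), and with CD31-gate cells alone 0.68 (edgeR adjusted p = 0.00227). Both stayed called, as did the fit to cells with at least 2000 detected genes (0.99, edgeR adjusted p = 0.00428). S1pr1 was found in 97.3% to 100% of Car4+ and 93.3% to 100% of Car4- cells in each mouse, shares too close to their maximum to show a difference. Against Early Car4- cells alone, S1pr1 was higher in Car4+ cells in 6 of 6 mice, and against Late cells in 2 of 4, the mice of P21. The P1 and P7 females, with 21 and 44 Late cells, went the other way.

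**Figure D2:**
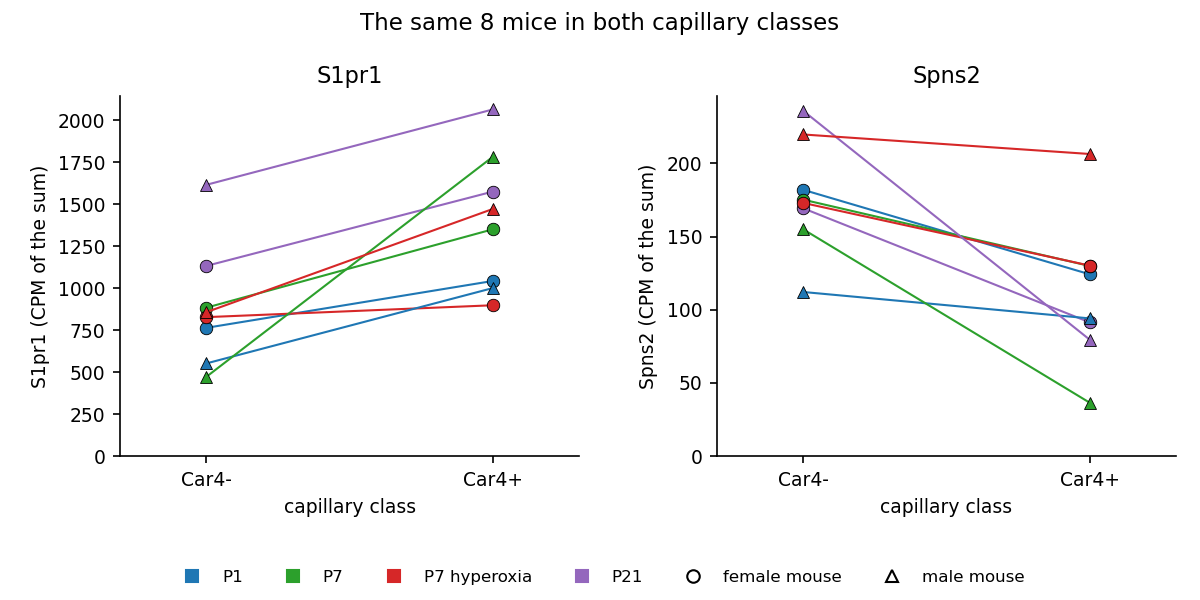
S1pr1 and Spns2 levels (CPM) in Car4- and Car4+ capillaries of the 8 postnatal mice, with a line joining the values of each mouse. The S1pr1 lines go up in all 8 mice and the Spns2 lines go down in all 8, by a ratio of 0.234 to 0.939; with CD31-gate cells alone, which are not drawn, the Spns2 line of the P21 male would go up (78.3 to 93.4 CPM).

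Outside the capillaries S1pr1 tended to lie lower than in Car4- capillaries of the same mouse. It was lower in lymphatic cells in 3 of 3 mice (384 against 763, 253 against 551 and 565 against 827 CPM), in arterial I cells in 5 of 5, in proliferative cells in 6 of 6 and in venous cells in 6 of 7. The lymphatic difference was -0.95 on the log2 scale (SE 0.30) and just missed the threshold (edgeR adjusted p = 0.0574). It was called without the P21 female or without the P7 male, and in 6 of the other alternatives. The fitted differences were -0.61 for arterial I cells (edgeR adjusted p = 0.175), -0.45 for venous (0.365 by edgeR, adjusted) and -0.35 for proliferative cells (0.669 by edgeR, adjusted). The arterial difference was called without the P7 male (edgeR adjusted p = 0.0241) and with CD31-gate cells alone (edgeR adjusted p = 0.00886). None of the 6 members was called in the venous, arterial I, lymphatic or proliferative comparisons, where 3.21%, 2.04%, 5.78% and 1.35% of the genes tested were called. Of the 6, edgeR gave an unadjusted p under 0.05 for 2, 1, 2 and 2 members in these comparisons. DESeq2 called 0, 1, 1 and 1 of the 6 and limma 1, 1, 2 and 1. Venous against arterial I cells called none either, with 0 members at an unadjusted p under 0.05 in edgeR, 4.29% of genes called, and 1 member called by DESeq2 and 0 by limma.

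With age, the S1pr1 level of Car4- capillaries was similar at P1 (763 and 551 CPM) and P7 (883 and 470.3), and both P21 mice (1132 and 1615) lay above all 4. The 13 Car4- cells of the E18.5 female had 1596, of which 1 cell held 57.6% of the reads. The difference between P21 and P7 was not called (log2 1.15, SE 0.41, edgeR adjusted p = 0.367). How many other genes separate the ages in this way was not counted. Within the sequencing runs that hold several ages, the order was the same: 760.0 CPM at P1 and 1111 at P21 in the female run, and 432 at P7 and 1893 at P21 in the male run. At P21, 533 of the 540 Car4- cells carry the Late label, so age and label cannot be told apart there. In Car4+ capillaries the P7 and P21 values overlapped (1351 and 1783, 1575 and 2064), although with CD31-gate cells alone the P7 male fell to 489.5 and the fitted P21 difference moved from 0.12 to 1.42 on the log2 scale (edgeR adjusted p = 0.875). Proliferative cells had 587 and 399 CPM at E18.5, 593 and 389 at P1, and 587 and 432 at P7. From embryonic nonproliferative cells (775 and 421) to Car4- capillaries of P1, S1pr1 differed by less than the spread between mice (log2 difference of embryonic against P1 cells -0.22, SE 0.43, edgeR adjusted p = 0.948).

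Under hyperoxia no class showed a called S1pr1 difference from normal air at P7. Car4- capillaries had 827 and 856 CPM (log2 difference from normal air 0.28, SE 0.41), Car4+ capillaries 898 and 1472 (-0.69, SE 0.46) and venous cells 567 and 474 (0.23, SE 0.58). Proliferative cells had 674 and 717 CPM under hyperoxia and 587 and 432 in normal air, and the difference was not called (0.44, SE 0.41, edgeR adjusted p = 1).

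**Figure D3:**
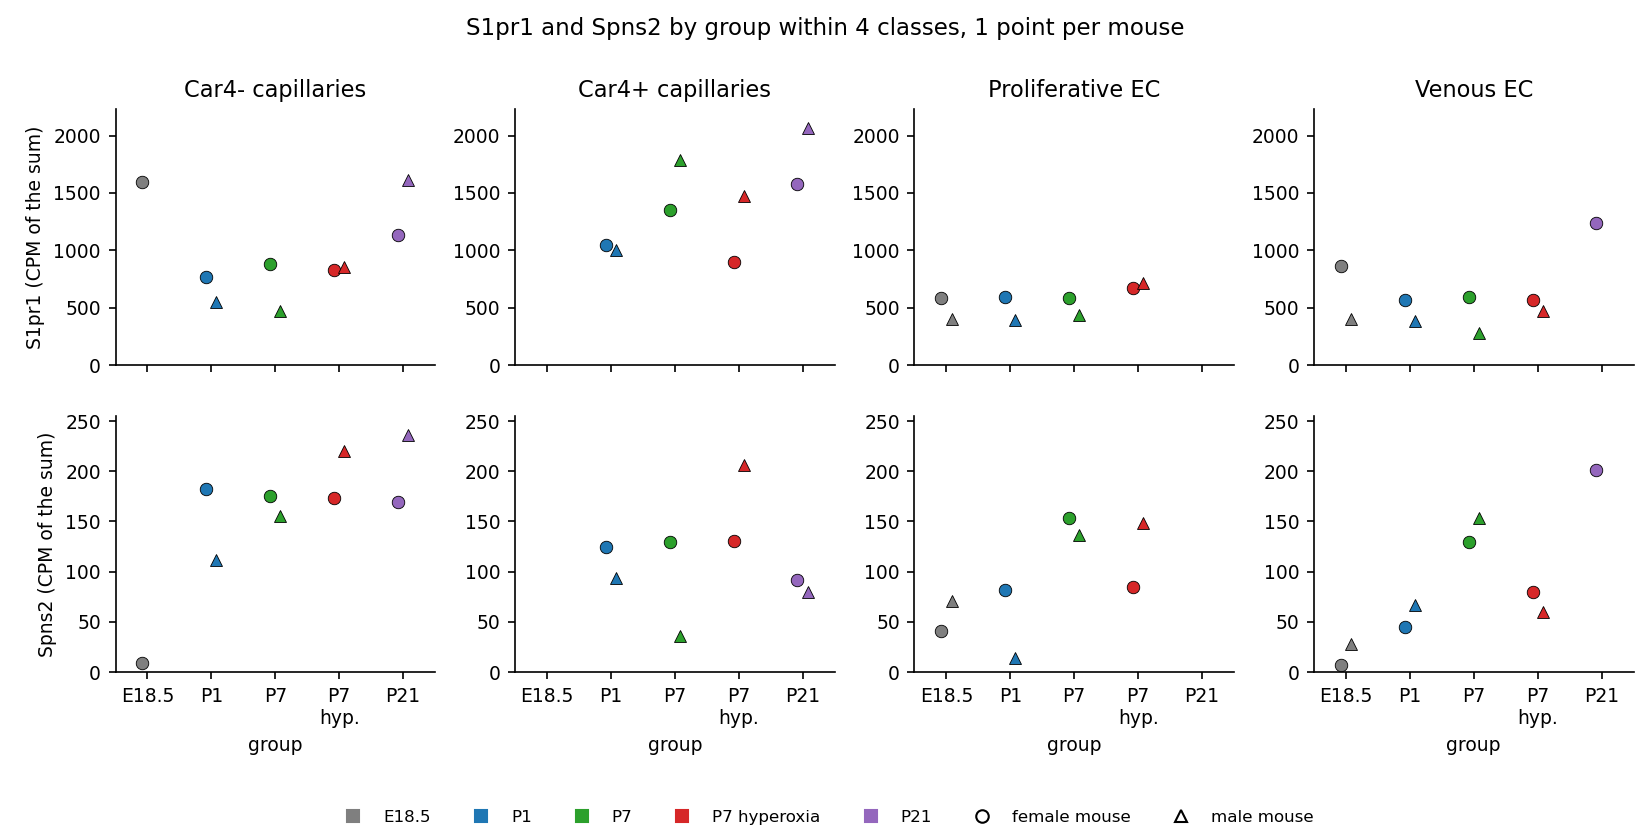
S1pr1 (top row) and Spns2 (bottom row) levels in CPM by age and oxygen group in Car4- capillaries, Car4+ capillaries, proliferative and venous cells, 1 point per mouse with at least 8 cells. Postnatal S1pr1 of Car4- capillaries is highest in the 2 mice of P21 (1132 and 1615 CPM), and Spns2 of venous cells is lowest at E18.5 (7.22 and 28.1 CPM).

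S1pr3, the broader-coupling receptor, was read mostly in Car4+ capillaries of the oldest mice. The P21 Car4+ cells held 72.3% of all its reads, 654 in the female and 4536 in the male, and it was found in 30 of their 134 cells, or in 22 after thinning (16.4%, exact 95% interval 10.6% to 23.8%, which covers counting error only). The share was 15.8% in the female and 16.9% in the male. At P1 there was no read in 76 Car4+ cells, which allows a share of up to 3.95%. At P7 a single female cell held 370 of 372 reads, and under hyperoxia there were 33 and 5 reads, with 1 of 56 cells positive after thinning. The P21 level was 13.03 CPM in the female and 85.2 in the male, where 1 cell held 1160 of the reads.

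The P21 cells with S1pr3 came from 3 of 4 combinations of mouse, gate and run. CD31-gate cells of the female had it in 9 of 44 cells, in the run in which the P1 female had it in 0 of 58, and mesenchymal-gate cells of the same P21 mouse in 0 of 13. The male had it in 6 of 44 CD31-gate cells, in the run in which the P7 male had 0 of 18 and the hyperoxia male 0 of 37, and in 7 of 33 mesenchymal-gate cells of another run. The 22 cells had a median of 2992 detected genes, the 112 other P21 Car4+ cells 2358. Their summed Car4+ markers were 11174 CPM against 13302, and of the 6 pericyte and smooth muscle markers 1 had a read at thinned depth, with a summed level of 4.45 CPM against 3.86. None of the 4 fibroblast markers had such a read.

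**Figure D4:**
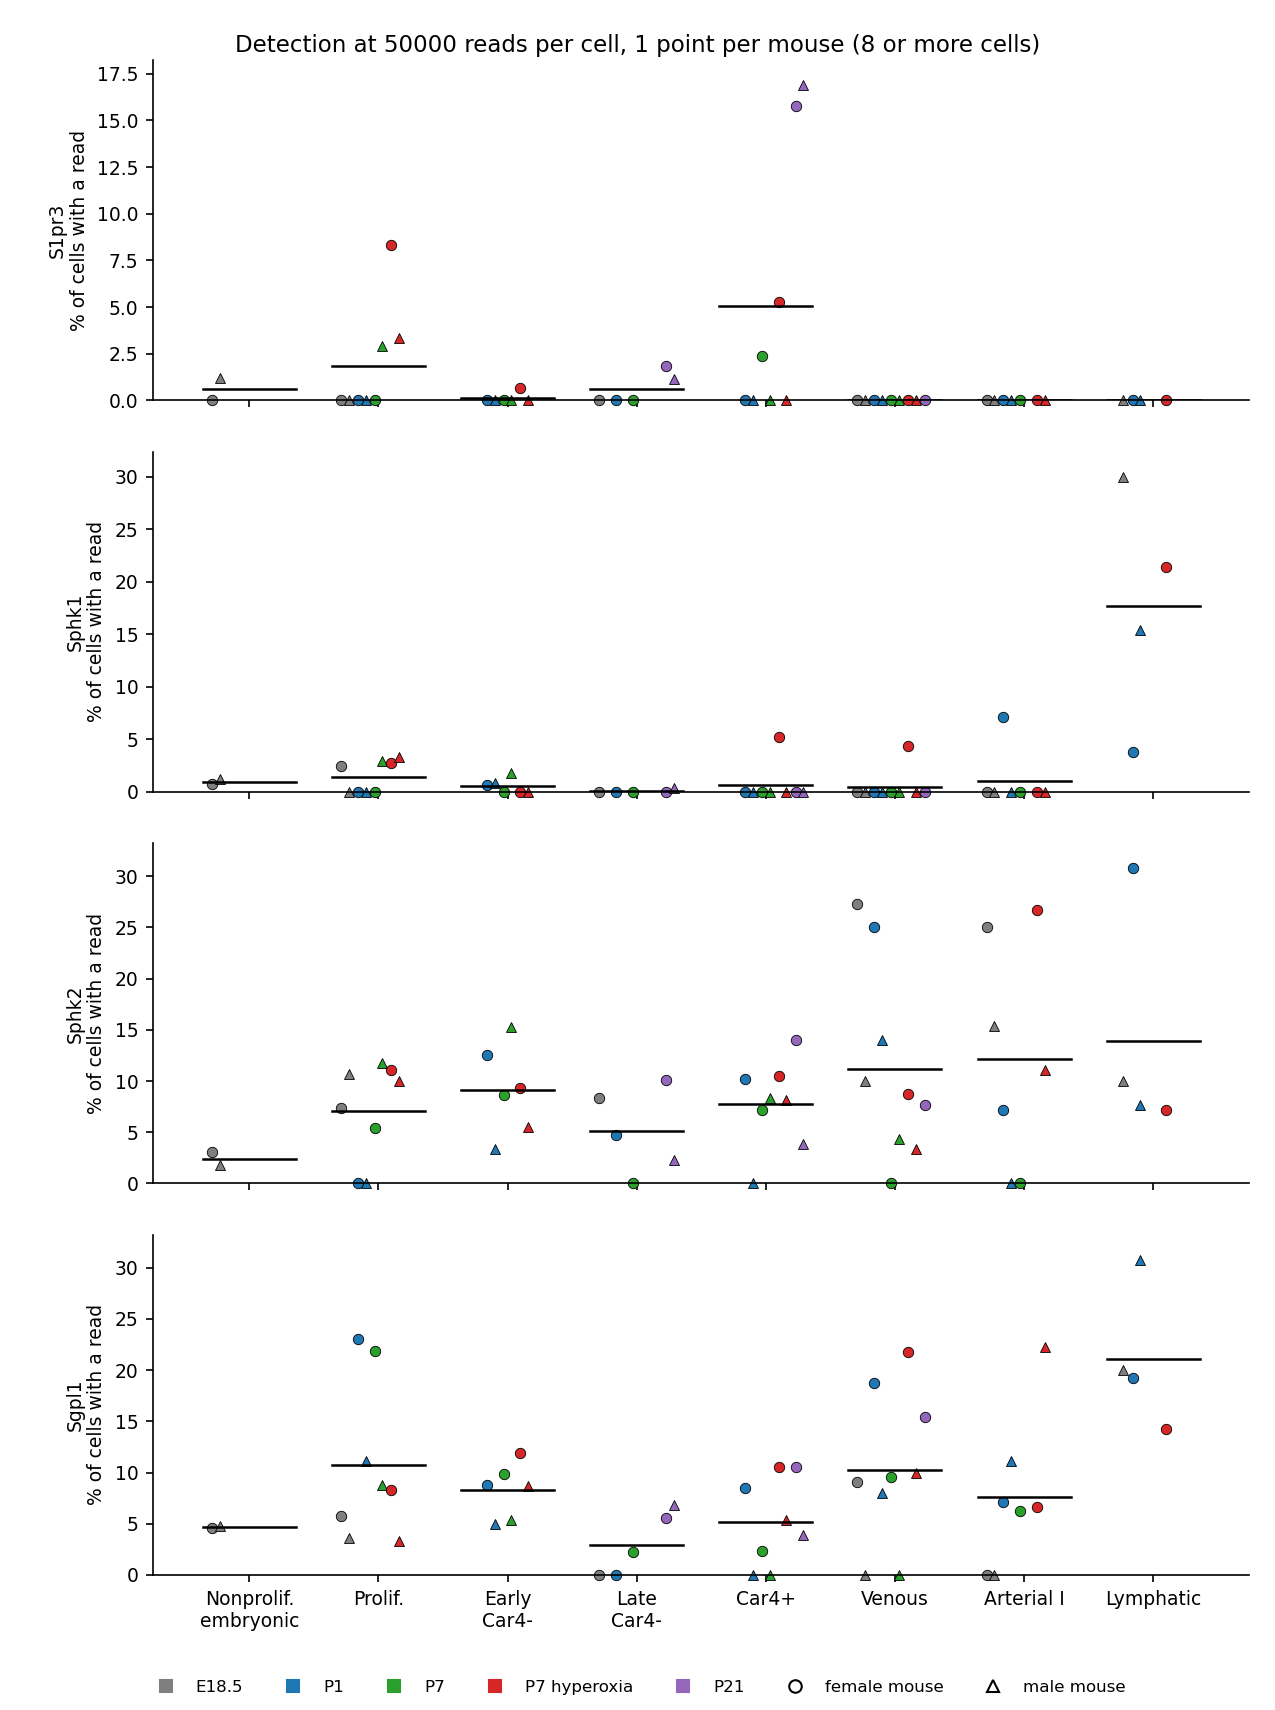
Share of cells with a read (%) for S1pr3, Sphk1, Sphk2 and Sgpl1 by subtype label after thinning to 50000 reads per cell; points are mice with at least 8 cells and black lines their means. The highest S1pr3 points are the P21 mice in Car4+ capillaries (15.8% and 16.9%), and Sphk1 is highest in lymphatic cells (mean 17.7%).

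Elsewhere, after thinning, S1pr3 was found in 8 of 533 Late Car4- cells of P21, in 4 of 66 proliferative cells under hyperoxia and 1 of 89 at P7, and in 0 of 82 lymphatic, 0 of 93 arterial I and 0 of 201 venous cells. Some markers of other cell types were read in a larger share of those 8 Late cells than of the 525 others. Of the 6 pericyte and smooth muscle (mural) markers, Notch3 was read in 3 of 8 (37.5% against 1.90%) and Myh11 in 2 (25% against 1.71%). The rest had no read in the 8 at this depth, and all 6 were read among the others. The epithelial gene Ager was in 3 (37.5% against 7.62%), and 2 of the 4 epithelial markers were read in the 8 cells, against all 4 among the others. As summed levels, mural (3.82 against 21.3 CPM), epithelial (116 against 132) and lymphatic markers (20.8 against 125) were lower in the 8. So were leukocyte and platelet and erythroid markers. Fibroblast (25.7 against 5.88) and Car4+ capillary markers (889 against 668) were higher. The 8 cells were also deeper, with medians of 882796 against 478766 reads and 3900.5 against 2258 detected genes. The part of RNA from other cell types in their S1pr3 reads was not tested. The lymphatic count allows a share of up to 3.66%. No edgeR fit called S1pr3, including P21 against P7 in Car4+ capillaries, where 1 cell held 99.5% of the P7 female's reads and where 0 of the 6 members had an unadjusted p under 0.05.

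Spns2, the exporter, was highest in Car4- capillaries by level and in lymphatic cells by share. Its mean was 172 ± 37.9 CPM in Early Car4- capillaries (n = 6), 131 ± 85.9 in Late (n = 5), 112 ± 47.7 in arterial I (n = 7), 111 ± 49.6 in Car4+ (n = 8) and 109 ± 14.7 in lymphatic cells (n = 4). Proliferative (91.1 ± 51.0, n = 8), venous (85.6 ± 63.3, n = 9) and nonproliferative embryonic cells (65.3 ± 13.2, n = 2) were lower, and the arterial II cells of 1 mouse were lowest. All neighbours in this order overlap except the last pair. The share with a read was 67.4 ± 18.7% in lymphatic cells, 52.1 ± 14.5% in Early and 21.6 ± 13.3% in Late Car4- cells. Against Car4- capillaries of the same mouse, the lymphatic share was higher in 2 of 3 mice.

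Within mice, Spns2 was lower in Car4+ than in Car4- capillaries in 8 of 8, where S1pr1 was higher. In the P21 male this depended on the sort gate: with CD31-gate cells alone Spns2 was higher in Car4+ (93.4 CPM) than in Car4- capillaries (78.3), and it stayed lower in the other 7 mice. The pairs were 124 against 182 and 94.0 against 112 CPM at P1, 130 (129.8) against 175 and 36.3 against 155 at P7, 130 (130.1) against 173 and 206 against 219.8 under hyperoxia, and 91.3 against 169 and 79.4 against 236 at P21. The fitted difference of -0.47 (SE 0.33) was not called (edgeR adjusted p = 0.526), and the share of positive cells went up in 4 mice and down in 4. Spns2 was also below Car4- capillaries in proliferative cells in 6 of 6 mice (log2 -0.83, SE 0.37, edgeR adjusted p = 0.397), in lymphatic cells in 3 of 3 (-0.56, SE 0.47) and in venous cells in 6 of 7 (-0.75, SE 0.35, edgeR adjusted p = 0.350).

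The lowest Spns2 levels were mostly embryonic. Nonproliferative embryonic cells had 56.0 and 74.6 CPM at E18.5, where P1 Car4- capillaries had 182 and 112. The difference of embryonic from P1 cells was -1.22 on the log2 scale (SE 0.40) and was not called (edgeR adjusted p = 0.345, with 0.494% of the 14967 genes called). No member was called there by edgeR, DESeq2 or limma, and 1, Spns2, had an unadjusted p under 0.05 in edgeR. In the run that holds both female mice the values were 56.0 and 186. Venous cells had 7.22 and 28.1 CPM at E18.5, 45.0 and 66.4 at P1 and 129.7 and 154 at P7, and the 1 P21 mouse had 201. Proliferative cells had 40.8 and 70.3 at E18.5, 82.0 and 13.7 at P1 and 153 and 136 at P7. None of these steps was called for any member. In the P7 step of proliferative cells (1.56, SE 0.74, edgeR adjusted p = 0.509) the P1 male value rests on 9 cells. In arterial I cells, Spns2 had 33.7 and 67.2 CPM at E18.5 and 173 and 143 at P1 (1.57, SE 1.10).

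Among postnatal Car4- capillaries Spns2 kept within 112 and 236 CPM at all ages. The highest value, 236 in the P21 male, depended on the sort gate, since the CD31-gate cells alone had 78.3, and a single cell held 27.7% of that mouse's reads. Under hyperoxia Car4- capillaries had 173 and 219.8 CPM (normal air 175 and 155). In venous cells Spns2 was 79.4 and 59.9 CPM under hyperoxia and 129.7 and 154 in normal air. The log2 difference of -1.02 was not called (SE 0.83, edgeR adjusted p = 1).

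Sphk1, the first kinase, had its highest share of positive cells in the lymphatic label. Of the 30 cells with a read after thinning, 13 were lymphatic. Lymphatic cells are 82 of the 2931 cells and held 1554 of the 2766 Sphk1 reads. A read was present in 18 of the 82, and after thinning in 13 (15.9%, exact 95% interval 8.72% to 25.6%, counting error only). In the 4 mice with at least 8 lymphatic cells the share was 30.0% in the E18.5 male, 3.85% and 15.4% in the P1 female and male, and 21.4% in the hyperoxia female, while the mean share of every other label was at most 1.44%. Reads came from 7 mice, with 746 of them in 1 cell of the P7 female. The lymphatic level exceeded the Car4- level in 3 of 3 mice, 6.42 against 2.11 CPM, 5.44 against 0.272, and 51.1 against no read in the hyperoxia female. In the first, the P1 female, single cells made both levels, which were 0.139 and 0.110 CPM without them. EdgeR did not call the difference and limma did (adjusted p = 0.00152).

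The Sphk1-positive lymphatic cells held more detected genes than the 69 others, a median of 6469 against 4704, and their lymphatic markers summed to 8174 CPM against 7410. Prox1 was found in 11 of the 13 and in all 69 others, the epithelial gene Ager in 46.2% against 14.5%, the Car4+ capillary gene Ednrb in 84.6% against 52.2% and the platelet gene Pf4 in 23.1% against 11.6%. At thinned depth, 2 of 4 epithelial, 4 of 5 Car4+ capillary and 2 of 6 platelet and erythroid markers had a read in the 13. In the others these counts were 2, 4 and 3. As summed levels, epithelial markers were 43.9 CPM in the 13 cells against 47.0 in the others, and Car4+ capillary markers 358 against 360. Platelet and erythroid markers were higher in the 13 (92.2 against 27.6). Fibroblast (9.18 against 124), pericyte and smooth muscle (13.1 against 25.7) and leukocyte markers (4.30 against 10.8) were lower. The part of RNA from other cell types in the Sphk1 reads was not tested. Outside the lymphatic label the 4 largest Sphk1 counts each came from single cells: 482 of 484 reads of proliferative cells in the hyperoxia male, 165 of 174 of Car4- capillaries in the P1 female, 146 of 147 of proliferative cells in the hyperoxia female and all 107 of venous cells in that mouse. In Car4- capillaries it was found in 5 of 1459 thinned cells.

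Sphk2, the kinase found mainly in the nucleus and at mitochondria, was thinly spread over all subtypes. The share of cells with a read was 13.9 ± 11.3% in lymphatic (n = 4), 12.2 ± 10.9% in arterial I (n = 7), 11.1 ± 9.43% in venous (n = 9), 9.12 ± 4.40% in Early Car4- and 7.78 ± 4.29% in Car4+ cells. Nonproliferative embryonic cells had the lowest, 2.41 ± 0.88% (n = 2). The levels of all neighbouring labels overlap. Single cells set several of its levels: 444 CPM in the 13 Car4- cells of the E18.5 female came from 1 cell, as did 96.1% of the Sphk2 reads of that mouse's arterial I cells. Among postnatal Car4- capillaries, whose sums hold 116 to 272 cells, Sphk2 kept between 5.14 and 18.2 CPM, and hyperoxia mice had 7.78 and 6.76 against 10.7 and 13.9 in normal air.

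Sgpl1, the lyase, was also read in few cells. Its share was 21.1 ± 6.94% in lymphatic cells (n = 4), 10.7 ± 7.71% in proliferative (n = 8), 10.3 ± 7.48% in venous (n = 9), 8.29 ± 2.66% in Early Car4- (n = 6), 5.15 ± 4.33% in Car4+ (n = 8) and 2.93 ± 3.15% in Late Car4- cells (n = 5). In the 3 mice with both classes, the lymphatic share exceeded the Car4- share in each (19.2% against 7.78%, 30.8% against 4.92% and 14.3% against 11.8%). By level it was higher in 2 and lower in 1 (fitted log2 difference -0.16, SE 1.37). The lymphatic cells of these mice also had more detected genes, with medians of 4699, 7617 and 4898 against 3776, 3174 and 3906. The part of this in the shares was not tested. Its share in Car4+ cells lay below that in Early Car4- cells in 6 of 6 mice, but above that in Late Car4- cells in 3 of 4. The highest Car4- level, 79.8 CPM in the P21 male, was 10.4 with CD31-gate cells alone, where the P21 female had 10.3.

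Age and oxygen called none of the 6 members in any class. In Car4- capillaries edgeR called 0%, 0.266% and 0.0136% of 14660 genes for P7 against P1, P21 against P7, and hyperoxia, and 0, 3 and 1 members had an unadjusted p under 0.05. In Car4+ capillaries it called 0%, 0.00814% and 0% of 12284 genes, and 1, 0 and 1 members had an unadjusted p under 0.05. In proliferative cells it called 0% of 13102 genes for P1 against E18.5, for P7 against P1 and for hyperoxia, with 1, 0 and 1 members at an unadjusted p under 0.05. Venous cells, in which 5 members could be tested, had 0.0162%, 0% and 0% of 12326 genes called and 0, 1 and 0 members at that unadjusted p in edgeR. Arterial I cells, with 4 members testable, had 0.0293% of 10250 genes called and 0 members at that p. The differences between the hyperoxia effect of Car4- capillaries and those of Car4+, proliferative and venous cells called 0%, 0% and 0% of genes in edgeR, with 0, 1 and 1 members at an unadjusted p under 0.05 and none called. In all these comparisons of age and oxygen limma called 0 members. DESeq2 called 1 in each of 4 of them (S1pr3 in Car4+ capillaries from P1 to P7 and in proliferative cells from E18.5 to P1, Sgpl1 in arterial I cells, and Sphk1 in the proliferative difference of hyperoxia effects), each resting on few cells, and 0 in the others.

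Since the receptor S1pr1 was found in 96.7% of thinned cells, nearly all cells with the exporter Spns2 had it too (1174 of 1194). Of the 2823 thinned cells with S1pr1, 41.6% also had Spns2, and of the 97 without it 20.6%, with all labels pooled. By label these shares were 34.0% and 10.4% in Late and 52.7% and 50% in Early Car4- cells. The order was reversed in nonproliferative embryonic (23.1% and 31.25%) and arterial I cells (40.4% and 50%), and held in the other labels that had cells without S1pr1. Sphk2 was found in 10.6% of cells with Spns2 and in 6.43% of the others. Spns2 and Sphk1 shared 17 cells, and S1pr3 and Sphk1 none. These shares are descriptions over cells that differ in label, in depth and in detected genes.

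Over the 47 sums of a mouse and a class, S1pr1 was most like Adgrf5, an adhesion receptor of lung capillaries (Pearson r = 0.780), Cyp4b1, a cytochrome P450 (0.780), and Atp8a1, a phospholipid flippase (0.777), among 7142 genes with a mean of at least 20 CPM. Among the genes most like Spns2 were the peroxisomal gene Pex14 (0.775) and Leng8 (0.754), and among those most like Sphk2 were Tfip11 (0.579) and Trip12 (0.576). S1pr1 and Spns2 themselves had an r of 0.015. These sums share mice, runs and depth, and the values carry no test.

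Of the wider pathway, 61 other genes of sphingolipid synthesis, breakdown and receptor signalling, and of the related lysophosphatidic acid pathway, were in the table. In Car4+ against Car4- capillaries 54 were tested, of which 3 were higher and 2 lower (6.24% of all genes tested were called), with a median log2 difference of 0.17 against -0.26 over all genes. The higher ones were Plpp3, a surface phosphatase that removes phosphate from lysophospholipids (372 ± 88.7 against 254 ± 107 CPM, log2 0.99, SE 0.21, edgeR adjusted p = 0.00286), the Gq-family gene Gna11 (log2 0.66, edgeR adjusted p = 0.0303) and Rac1, the GTPase downstream of S1pr1 (0.53, edgeR adjusted p = 0.0324). The lower ones were Acer2, a Golgi ceramidase that releases the sphingosine used by the kinases (70.9 ± 29.7 against 529 ± 160 CPM, log2 -2.64, SE 0.33, edgeR adjusted p = 3.44e-06), and Ugcg, which makes glucosylceramide (-1.58, edgeR adjusted p = 0.0349). Gna11 lost its call in 10 and Rac1 in 14 of 20 alternative analyses, Ugcg in 6 and Plpp3 in 1, and Acer2 kept it in all 20.

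Lymphatic cells differed from Car4- capillaries in 8 of the 54 genes, 2 higher and 6 lower (5.78% of all genes tested were called), with a median of -0.53 against -0.18 over all genes. Sptssa, a small subunit of serine palmitoyltransferase, the first enzyme of sphingolipid synthesis, was higher (478 ± 215 against 126 ± 45.2 CPM, log2 1.79, SE 0.28, edgeR adjusted p = 5.63e-05), as was the desaturase Degs1 (1.19, edgeR adjusted p = 0.00885). Acer2 was lower (25.0 ± 20.7 against 529 ± 160 CPM, log2 -4.82, SE 0.58, edgeR adjusted p = 9.03e-07), and so were the lipid phosphatase Plpp1 (316 ± 97.5 against 1341 ± 349, log2 -2.08, SE 0.41, edgeR adjusted p = 0.00125) and Kdsr, the reductase of the second synthetic step (-1.81, edgeR adjusted p = 0.00245). The Gi subunit Gnai2 (-0.94, edgeR adjusted p = 0.00133), Gna11 (-0.93, edgeR adjusted p = 0.0422) and Klf2, a transcription factor that drives S1pr1 in lymphocytes (-1.15, edgeR adjusted p = 0.0263), were lower too. Of 20 alternatives, Gna11 lost its call in 14, Klf2 in 8, Degs1 in 2, and Kdsr and Gnai2 in 1 each, while Acer2, Plpp1 and Sptssa kept it in all.

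**Figure D5:**
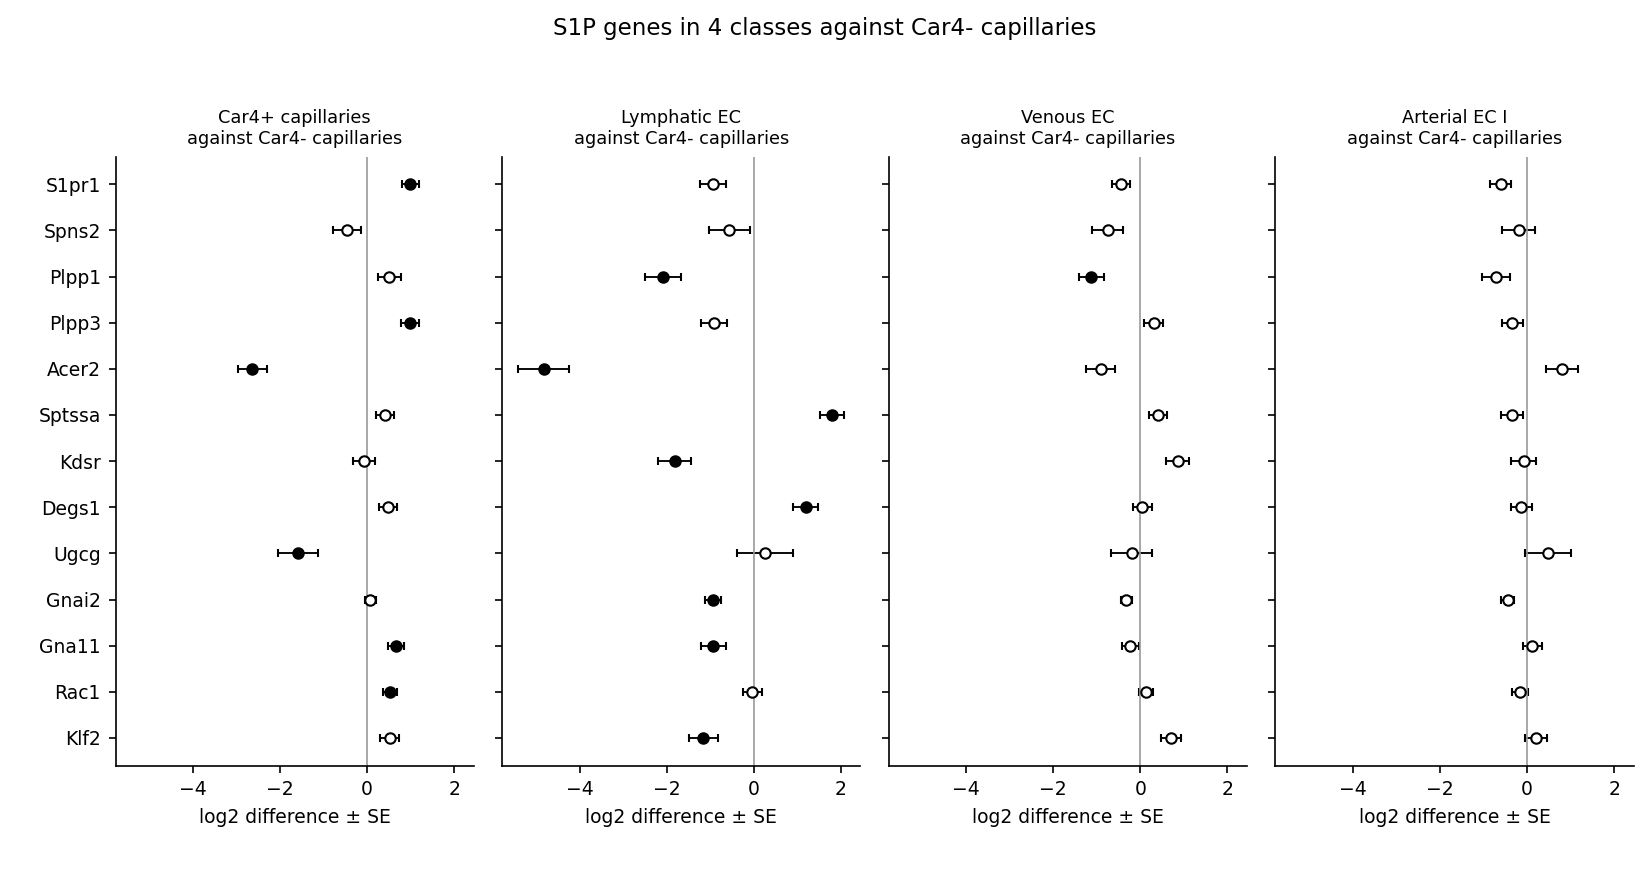
Fitted log2 differences from Car4- capillaries with their SE, for S1pr1, Spns2 and the pathway genes called in at least 1 panel, in Car4+ capillaries, lymphatic, venous and arterial I cells; filled points passed the threshold. S1pr1, Plpp3, Gna11 and Rac1 are higher and Acer2 and Ugcg lower in Car4+ capillaries, and Acer2 in lymphatic cells lies at -4.82.

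In venous against Car4- capillaries 1 of the 54 genes was called, where 3.21% of all genes were: Plpp1 (562 ± 244 CPM in venous cells, log2 -1.13, SE 0.28, edgeR adjusted p = 0.0201), which lost its call in 4 of 20 alternatives. Venous against arterial I cells called 4, where 4.29% of all genes were called: Asah2, Cers6 and Smpd1 higher and Acer2 lower (219 ± 124 against 706 ± 301 CPM, log2 -1.71, SE 0.38, edgeR adjusted p = 0.00619). The arterial I and proliferative comparisons with Car4- capillaries called none, with 9 and 8 genes at an unadjusted p under 0.05 in edgeR. No pathway gene was called in any comparison of age, birth or oxygen.

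Of the other receptors of the lipid, S1pr4, known mainly from blood cells, had 103314 reads and was not called in any comparison. Car4+ capillaries had 117 ± 74.9 CPM (n = 8) and Car4- capillaries 43.0 ± 20.2 (n = 9), and Car4+ cells were higher in 7 of 8 mice, the exception being the hyperoxia female (28.4 against 42.6 CPM). S1pr2 had 9402 reads and S1pr5 32 in all cells together. The erythrocyte exporter Mfsd2b had 4146 reads and the carrier Apom 904.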

How the data were processed

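Per the labels, the deposited table holds the reads of 2931 endothelial cells, each a well of a plate, from 10 mice. The values are raw counts per gene symbol as deposited by the authors. STAR 2.5.2b and HTSeq 0.10 are named in the submitters' processing notes, which also name the human build GRCh38; the mouse annotation used and whether strand was used are not given in the sources used here. No doublet caller was run, since every cell was its own well.

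Counts were summed per mouse and class (at least 8 cells) and tested with edgeR 4.0.16 (quasi-likelihood F test, TMM factors, low-count filter, Benjamini-Hochberg over all genes tested). The subtype comparisons used 37 sums of 8 postnatal mice with a mouse term, and the age and oxygen comparisons were fitted within a class. Standard errors are the log2 difference divided by the square root of F. Shares come from cells thinned to 50000 reads, with exact 95% intervals, and a count of 0 is given the limit of 3 counts. Alternatives used DESeq2 1.42.0, limma 3.58.1 on log2(mean CPM + 1), other filters and fewer cells or mice. The edgeR, DESeq2 and limma fits were tested on simulated data. Gene positions come from GENCODE M21.

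The 6 members are always described, and of the wider pathway those past the threshold are named, with the 3 genes most like each member above 20 CPM, of which some are not reported here. Members and lists were chosen with earlier results of these data known. The labels do not say whether mice of a group shared a litter, so p-values speak only for these mice. In the comparisons of age, birth and oxygen fitted without a mouse term, they measure the spread between mice. The subtype comparisons and the differences of hyperoxia effects held a mouse term, which takes up each mouse's own level. Their p-values measure how much the class differences vary among these mice.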

Additional observations from a re-analysis of the deposited data

How the results depend on the processing

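The higher S1pr1 of Car4+ capillaries kept its direction and its call in all 20 alternatives, between 0.58 and 1.09 on the log2 scale. The mouse term served as a replicate block in the subtype comparisons, and without it the difference was 0.91 (edgeR adjusted p = 0.0497). The number of called members changed in these cases, and the cause was not tested. Against Car4- capillaries, venous cells gained 1 (S1pr1, lower) with thinned cells and with limma. Arterial I cells gained 1 with DESeq2 (S1pr3) and 1 (S1pr1, lower) with CD31-gate cells alone, with thinned cells and with limma, and had 0 to 1 when 1 mouse was left out. Lymphatic cells gained 1 with DESeq2 (S1pr3), 1 (S1pr1, lower) without the low-count filter, with CD31-gate cells alone, with thinned cells, with a 4-cell minimum and without the replicate block, and 2 with limma (S1pr1 and Sphk1), and had 0 to 1 when 1 mouse was left out. Proliferative cells gained 1 (S1pr3) with DESeq2 and with limma, and venous against arterial I cells 1 with DESeq2 (S1pr3). DESeq2 also called 1 member in Car4+ capillaries from P1 to P7, in proliferative cells from E18.5 to P1, in arterial I cells from E18.5 to P1, and in the proliferative difference of hyperoxia effects. Proliferative cells from P1 to P7 also changed without the P1 female (Spns2, higher), a fit that leaves 1 P1 mouse with 9 cells. Sex as a replicate block in the age comparisons gave no member a call; over 24 pairs of groups, same-sex mice deviated together with a median correlation of 0.0821 (-0.117 to 0.334), and 9 pairs were over 0.1, among them all 3 pairs of P1, P7 and P7 hyperoxia in Car4- capillaries and in venous cells. Not every pair reached 0.1, so the sex letters were not used to pair mice. Library totals alone, cells with at least 2000 detected genes, and Car4- capillaries without early Late-labelled cells were chosen after seeing the data. S1pr3 was read in 79 cells and Sphk1 in 91; whether depth limits their detection was not tested.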
